A study of Homo sapiens with 4 samples.

Results

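A set of 10 genes that are widely used to follow epithelial-mesenchymal transition (EMT) were examined in T24 bladder cancer cells given isorhapontigenin (ISO). They were listed by symbol, by a rule that uses none of their values, though they were chosen with earlier results of these data known. The genes are SNAI1, SNAI2, ZEB1, ZEB2, TWIST1, CDH1, CDH2, VIM, FN1 and TGFBI, out of 47432 genes listed in the table. T24 is a long-established human cell line grown from an invasive bladder carcinoma, so the libraries represent 1 line and hold no stroma of a tumour. RNA-seq was performed on 2 libraries of cells given ISO, a plant stilbene, at 20 µM for 24 h and on 2 libraries of control cells, which the labels call untreated and the methods describe as given the DMSO vehicle. The labels and the methods also name different culture media, with no difference given between the groups. It is not stated that libraries a and b of a group were grown as separate cultures. Each p-value therefore weighs the group difference only against the spread between these libraries, estimated in part from other genes, and that spread may be technical.

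EMT is the program by which epithelial cells loosen their junctions and take on a motile, spindle-shaped form. It is driven by transcription factors of the SNAI, ZEB and TWIST families, which bind E-box sequences and repress epithelial genes, above all the cell-cell adhesion gene CDH1 (E-cadherin). Cells that have passed through the program often carry CDH2 (N-cadherin) instead, with the intermediate filament vimentin (VIM) and the matrix protein fibronectin (FN1), and TGF-β is one of its main inducers. In bladder carcinoma, loss of E-cadherin is known from invasive tumours and from cell lines derived from them.

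The RefSeq table of promoters (GRCh38.p14) held 13 windows of 250 bases before a transcript start, for 6 of the 10 genes, namely CDH2, FN1, TGFBI, VIM, ZEB1 and ZEB2. The windows of 4 genes are shown, since these are the genes with a window whose RNA was lower in both ISO libraries than in both control libraries. They are VIM at chr10:17227991-17228240 (+ strand), FN1 at chr2:215436069-215436318 (− strand), TGFBI at chr5:136028738-136028987 (+ strand) and the most upstream of the 7 ZEB1 windows at chr10:31318167-31318416 (+ strand). Capitals mark matches on either strand to the E-box of SNAI and ZEB factors (CACCTG or CAGGTG), the AP-1 site (TGAGTCA or TGACTCA), the cAMP response element (TGACGTCA) and the GC box (GGGCGG or CCGCCC).
VIM: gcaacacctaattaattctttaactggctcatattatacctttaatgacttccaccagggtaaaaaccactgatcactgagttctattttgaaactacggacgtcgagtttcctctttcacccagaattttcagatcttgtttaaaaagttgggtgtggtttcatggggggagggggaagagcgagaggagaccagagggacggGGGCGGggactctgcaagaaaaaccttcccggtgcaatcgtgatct
FN1: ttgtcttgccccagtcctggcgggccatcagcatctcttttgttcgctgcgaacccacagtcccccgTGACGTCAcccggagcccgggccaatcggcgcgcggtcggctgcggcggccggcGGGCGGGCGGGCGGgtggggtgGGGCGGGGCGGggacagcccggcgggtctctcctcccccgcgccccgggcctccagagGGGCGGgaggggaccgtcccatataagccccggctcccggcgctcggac
TGFBI: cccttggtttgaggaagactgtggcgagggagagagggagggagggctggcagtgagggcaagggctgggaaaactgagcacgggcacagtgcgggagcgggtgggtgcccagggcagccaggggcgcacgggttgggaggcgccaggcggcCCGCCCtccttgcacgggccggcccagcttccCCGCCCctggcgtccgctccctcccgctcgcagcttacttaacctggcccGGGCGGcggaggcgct
ZEB1: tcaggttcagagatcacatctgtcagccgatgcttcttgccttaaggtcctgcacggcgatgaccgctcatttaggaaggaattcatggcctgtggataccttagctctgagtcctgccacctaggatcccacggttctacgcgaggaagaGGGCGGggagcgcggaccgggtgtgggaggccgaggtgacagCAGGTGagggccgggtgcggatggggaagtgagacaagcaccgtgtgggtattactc

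Positions count the first base of a match back from the transcript start. The FN1 window held a cAMP response element at -183 and 6 GC boxes from -129 to -49, of which the one at -125 overlaps those at -129 and -121, and the one at -107 overlaps that at -102. The TGFBI window held GC boxes at -98, -66 and -16, and the VIM window held 1 at -46. The printed ZEB1 window held a GC box at -99 and an E-box at -57. Of the ZEB1 windows not printed, the one at chr10:31318966-31319215 held E-boxes at -242 and -85, and the rest held no E-box. Of all 35116 windows in the table, 42.6% held a GC box, 17.5% the E-box, 4.20% the AP-1 site and 1.65% the cAMP response element, and none of the 13 windows of these genes held the AP-1 site. A match is a description of the letters and was not tested as a binding site.

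The deposited values are RPKM, reads scaled to the exon length of a gene and to the mapped reads of its library. Multiplied by exon length and library scale they gave whole reads, 39028228 and 32349827 on genes in the ISO libraries a and b, against 42879427 and 40396212 in control. The 2 groups were set against each other by limma on log2(RPKM + 0.1), in the 15304 genes that averaged at least 0.1 RPKM, and a gene was called where its Benjamini-Hochberg adjusted p was under 0.05. Of the tested genes 9.3% were called higher and 4.12% lower in ISO, so that 69.3% of calls were higher. With TMM scaling, which assumes that most genes keep their level, 4.1% were called higher and 5.83% lower, and 41.3% of calls were higher. The labelled cell type, bladder epithelium, was checked against 15 epithelial and urothelial markers: 8 averaged at least 1 RPKM, among them KRT7, KRT8, KRT18, KRT19, GATA3 and FOXA1, whereas KRT5 was at 0 in all 4 libraries and CDH1, UPK1B, UPK3A and TP63 averaged under 0.1 RPKM. Their summed level, mostly from KRT7, KRT8 and KRT18, was 750 and 741 RPKM in ISO and 867 and 856 RPKM in control. Of 9 fibroblast markers 5 were at 0 in all libraries (COL1A2, COL3A1, DCN, LUM and FAP), with a summed level of 1.37 and 1.72 RPKM in ISO and 1.22 RPKM in each control library, and 2 of 6 endothelial (KDR, TEK) and 3 of 5 leukocyte markers (PTPRC, CD3E, LYZ) were also at 0. Those that averaged at least 1 RPKM were CDH5, at 14.0 to 17.7 RPKM, and CD14, at 2.98 to 3.67 RPKM.

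Among the 10 genes, 2 passed the test and both fell in ISO: SNAI2, an EMT transcription factor, and VIM, the vimentin filament. ZEB1, FN1 and TGFBI were also lower in both ISO libraries than in both control libraries but did not pass, the 2 libraries of each group overlapped for SNAI1 and ZEB2, and the interval of CDH2 included 0. CDH1 and TWIST1 were at or near 0 in all 4 libraries. Thus 8 of the 10 genes were tested, and the 2 calls stand beside 4.12% of all genes called lower. The groups did not overlap for 5 genes lower in ISO, against 18.3% of all tested genes, and for 1 gene higher (CDH2), against 41.9%. The median log2 fold change of the 8 was -0.15, beside 0.06 over all tested genes, and 7 of the 8 had a value below 0.

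Per kilobase of exon, the group means covered a wide range. In both groups VIM, FN1 and CDH2 were followed by SNAI2, TGFBI, then SNAI1 and ZEB1 in either order, and ZEB2, with CDH1 and TWIST1 at the bottom. VIM took 0.416% and 0.399% of all reads on genes in ISO and 0.486% and 0.458% in control. FN1, whose exons are longer, took 1.04% and 1.25% in ISO and 1.33% in each control library. The neighbours SNAI2 and TGFBI overlapped in ISO, at 3.54 to 3.93 RPKM and 3.61 to 3.63 RPKM, but did not overlap in control, and the ZEB1 values lay within the range of SNAI1 in both groups. Lengths are those of all annotated exons of a gene, which can exceed the length of 1 transcript.

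**Figure D1:**
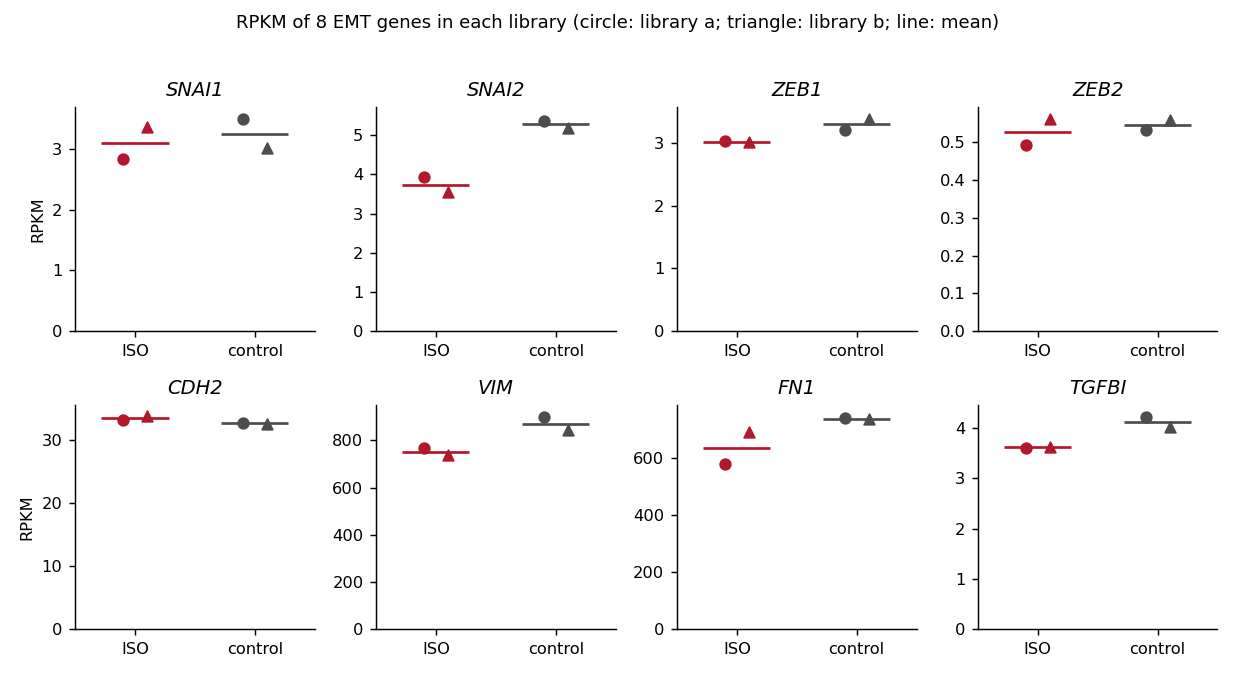
RPKM of the 8 tested EMT genes, 1 panel a gene with its own axis from 0, with ISO libraries in red on the left and control libraries in grey on the right (circle library a, triangle library b, line group mean, n = 2). Both ISO points lie under both control points for SNAI2, ZEB1, VIM, FN1 and TGFBI, the 2 FN1 values in ISO are far apart, and in CDH2 both ISO points lie above control by a small margin that turns negative with TMM scaling.

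SNAI2 (chr8:48917598-48921740, − strand), which encodes the zinc-finger repressor Slug, had 3.93 and 3.54 RPKM in ISO and 5.36 and 5.19 RPKM in control. These values rest on 526 and 394 reads in ISO and 788 and 721 reads in control. Both ISO libraries lay below both control libraries, by more than the libraries of either group differed. The mean fell by 29.2%, a log2 fold change of -0.49 (SE 0.063, 95% interval -0.64 to -0.34, adjusted p = 0.0096 from limma). In bulk RNA, fewer cells that carry a transcript and less of it per cell cannot be told apart. With TMM scaling the log2 fold change was -0.55 (adjusted p = 0.0077), and limma-voom on the recovered reads gave an adjusted p of 4.7e-05, where 10.3% of genes were called lower and 8.02% higher. SNAI2 was called with each library left out (adjusted p 0.030 to 0.049), and with no filter on low genes its adjusted p was 0.056.

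The related factor SNAI1 (Snail, chr20:49982980-49988886, + strand), a direct repressor of E-cadherin, had 2.83 and 3.36 RPKM in ISO and 3.48 and 3.01 RPKM in control, from 194 to 266 reads a library. The libraries of the 2 groups were interleaved. Its log2 fold change was -0.07 (95% interval -0.32 to 0.19, adjusted p = 0.71 from limma), and it was above 0 without ISO library a (0.05) or control library a (0.03). The difference between SNAI1 and SNAI2 was not tested.

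The tested genes whose 4 values ran closest to those of SNAI2, by Euclidean distance over the 4 libraries on the log2 scale after subtracting the control mean, were an unnamed gene with the identifier ENSG00000260563 (distance 0.0323), SLC2A1 (0.0357), the glucose transporter GLUT1, and ADM (0.0644), the peptide adrenomedullin. SLC2A1 averaged 35.7 RPKM in ISO and 49.7 RPKM in control, and ADM averaged 19.6 RPKM in ISO and 28.2 RPKM in control. Likeness over 4 libraries is a description only.

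ZEB1 (chr10:31318495-31529814, + strand), a zinc-finger and homeodomain repressor of CDH1 and of the miR-200 genes, had 3.03 RPKM in each ISO library and 3.21 and 3.40 RPKM in control. Both ISO libraries lay just under the lower control library. The log2 fold change was -0.12 (SE 0.057, 95% interval -0.26 to 0.02, adjusted p = 0.21 from limma), and limma-voom on reads with TMM called it lower (-0.18, adjusted p = 0.033). Exons of the antisense transcript ZEB1-AS1 share 4.58% of ZEB1 exon bases, and its reads were 9.80% and 8.0% of those of ZEB1 in ISO and 9.72% and 9.41% in control. Whether the counting used strand is not stated, so reads in the shared bases cannot be told apart.

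ZEB2 (chr2:144364364-144521057, − strand), the paralog with the same role, was near 0.5 RPKM in all libraries: 0.493 and 0.562 RPKM in ISO and 0.533 and 0.557 RPKM in control. The 2 groups overlapped, with a log2 fold change of -0.04 (95% interval -0.36 to 0.28, adjusted p = 0.87 from limma) that was 0.04 without ISO library a. TWIST1 (chr7:19020991-19117636, − strand), a basic helix-loop-helix factor that induces CDH2, had 0 reads in every library. A count of 0 allows up to 3 reads, or 0.0368 and 0.0443 RPKM in ISO and 0.0335 and 0.0355 RPKM in control, so any difference was not detectable at this depth. Its close relative TWIST2 had 0 reads in both ISO libraries and 1 read in control, in library a.

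CDH1 (chr16:68737292-68835537, + strand), the E-cadherin gene whose loss defines EMT in most schemes, had 0 reads and 1 read in ISO and 0 reads in both control libraries. The single read is 0.00486 RPKM. The 3 reads that a count of 0 allows come to 0.0121 RPKM in ISO library a and to 0.0110 and 0.0117 RPKM in control. No fold change is given, and at this depth neither group held detectable E-cadherin RNA beyond that read. Reads of MIR200CHG, a host transcript of miR-200 family members that hold ZEB1 and ZEB2 down in epithelial cells, were 0 in all 4 libraries.

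CDH2 (chr18:27932879-28177946, − strand), the N-cadherin of mesenchymal and neural cells, had 33.1 and 33.8 RPKM in ISO and 32.7 and 32.5 RPKM in control, from 9838 to 12569 reads a library. Both ISO values were above both control values, by less than the ISO libraries differed from each other. The log2 fold change was 0.04 (SE 0.031, 95% interval -0.04 to 0.11, adjusted p = 0.47 from limma), and it was -0.02 with TMM scaling, median-of-ratios scaling or limma-voom.

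VIM (chr10:17228241-17237593, + strand), the intermediate filament that marks mesenchymal cells, was the highest of the 10 genes per kilobase, at 769 and 736 RPKM in ISO and 898 and 845 RPKM in control. Both ISO libraries lay below both control libraries. The mean was 752 ± 23.0 RPKM in ISO and 871 ± 38.1 RPKM in control (SD, n = 2 each), and the level fell by 13.7%. The log2 fold change was -0.21 (SE 0.044, 95% interval -0.32 to -0.10, adjusted p = 0.031 from limma) and -0.27 with TMM scaling (0.038). This call was lost without any 1 of the libraries: the adjusted p was 0.079 without ISO library a, 0.13 without ISO library b, 0.12 without control library a and 0.061 without control library b. It was also lost with no filter (adjusted p = 0.16), while the log2 fold change kept its sign throughout. Antisense VIM-AS1 exons share 12.7% of VIM exon bases, but its reads were at most 0.042% of those of VIM. The summed epithelial markers, mostly the keratins KRT7, KRT8 and KRT18, were lower in the same libraries, and their part in the result was not tested. Among the same markers GATA3 and FOXA1 were higher in both ISO libraries, PPARG was lower and EPCAM overlapped.

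FN1 (chr2:215360440-215436073, − strand), the fibronectin of the extracellular matrix, had 577 and 692 RPKM in ISO and 741 and 735 RPKM in control. Both ISO libraries were lower than control, and ISO library a was far lower than ISO library b. On the log2 scale ISO library b minus ISO library a was 0.26, a wider gap than in 99.5% of 6208 genes of at least 5 RPKM, for which the median gap was 0.047, and control library b minus control library a was -0.01. The log2 fold change was -0.22 (SE 0.081, 95% interval -0.42 to -0.03) and did not pass (adjusted p = 0.12 from limma). Its size rests on ISO library a: without it the log2 fold change was -0.09 (adjusted p = 0.22), and without ISO library b it was -0.35 (adjusted p = 0.028). With TMM scaling FN1 was at -0.29 (adjusted p = 0.076), and limma-voom called it lower (adjusted p = 0.0013).

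TGFBI (chr5:136028988-136063818, + strand), a secreted matrix protein named for its induction by TGF-β, had 3.61 and 3.63 RPKM in ISO and 4.23 and 4.02 RPKM in control. The ISO libraries were nearly equal and both lay below control. The log2 fold change was -0.18 (SE 0.053, 95% interval -0.31 to -0.06) with an adjusted p of 0.071 from limma. It passed with TMM scaling (-0.24, adjusted p = 0.042), with limma-voom (adjusted p = 0.0044) and when only genes of at least 1 RPKM were tested (adjusted p = 0.044). In the 4 fits that each left out 1 library TGFBI did not pass (adjusted p 0.14 to 0.29).

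**Figure D2:**
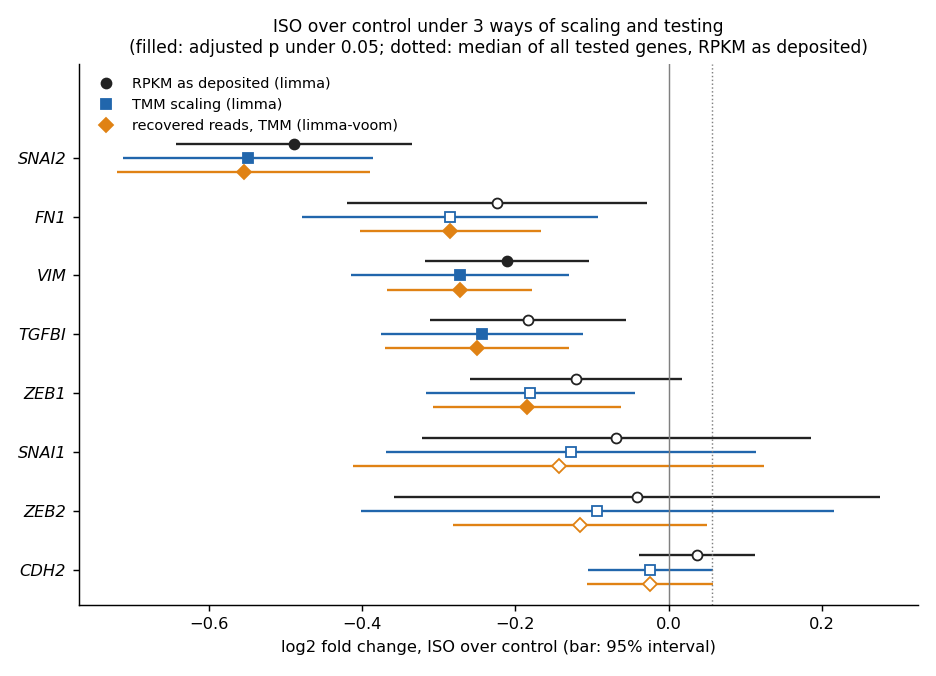
Log2 fold change of ISO over control with its 95% interval for the 8 tested genes (rows), from RPKM as deposited (black circles), with TMM scaling (blue squares) and from recovered reads with limma-voom (orange diamonds), filled where the adjusted p was under 0.05. SNAI2 and VIM are filled in all 3, TGFBI in 2, FN1 and ZEB1 only with limma-voom, and CDH2 moves across 0 from 0.04 to -0.02 with TMM scaling.

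**Figure D3:**
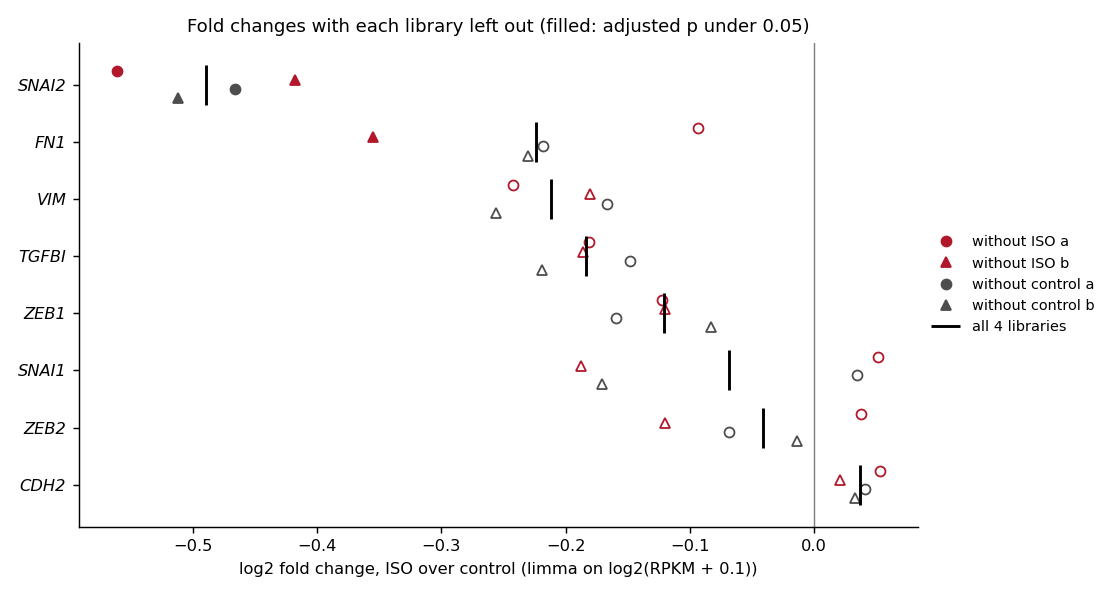
Log2 fold change of ISO over control for the same genes with each library left out in turn (red without an ISO library, grey without a control library, circle library a, triangle library b, filled where the adjusted p was under 0.05, black line all 4 libraries). SNAI2 stays filled in all 4 fits, FN1 spreads between -0.35 and -0.09, SNAI1 and ZEB2 cross 0, and VIM stays below 0 with no filled point.

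To place the 10 genes in the program they belong to, 14 hand-written lists with 239 distinct genes were read from the same fit. Of 194 distinct list genes tested, 15 rose and 29 fell in ISO, with a median log2 fold change of -0.00065, beside 0.06 over all tested genes. These counts stand beside 9.3% of all tested genes called higher and 4.12% called lower. With TMM scaling the counts were 6 higher and 36 lower, beside 4.1% and 5.83% of all genes, and the same shares apply to each list. No list was tested as a set. The lists were written with earlier results of these data known, so a list's share beside that of all genes cannot show enrichment. Levels of single genes are given in RPKM.

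The genes that act with or on the EMT transcription factors were read as 4 lists. Of 9 tested other EMT transcription factors FOXC2 (log2 fold change 0.23) and SOX4 (0.26) rose, and neither passed with TMM scaling. None of 15 corepressors and chromatin partners of SNAI and ZEB passed with limma (median 0.06), and limma-voom called 2 lower. At an unadjusted p under 0.05 from limma there were 5 of these 15, beside 4711 of all 15304 tested genes. Of 14 kinases and ubiquitin ligases that set the protein level of these factors, CSNK1E and CSNK1A1, of the casein kinase 1 family that phosphorylates Snail, fell by 0.26 and 0.20 on the log2 scale. None of the 3 tested antisense or divergent transcripts passed with limma or limma-voom, ZEB1-AS1 and VIM-AS1 among them (0 at an unadjusted p under 0.05).

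Among epithelial transcription and splicing factors, 11 of 18 were tested, 3 rose and 1 fell, with the same counts under TMM scaling. GATA3, a luminal urothelial factor, had 6.52 and 7.67 RPKM in ISO and 4.58 and 4.95 RPKM in control, a log2 fold change of 0.56 (adjusted p = 0.014 from limma). FOXA1, its partner in urothelial cells, rose by 0.43 and KLF4, a zinc-finger factor of epithelia, rose by 0.51 on the log2 scale. KLF5 fell by 0.22. With a library left out the log2 fold change ranged from 0.44 to 0.68 for GATA3 and from 0.38 to 0.48 for FOXA1. Neither of these 2 genes was called in every such fit. PPARG, a urothelial factor from the marker list, had 4.05 and 3.79 RPKM in ISO and 7.73 and 6.98 RPKM in control, so both ISO libraries lay below control. GRHL2, an activator of CDH1, was at 0 in all 4 libraries, and the splicing factor ESRP1 was at 0.0954 and 0.121 RPKM in ISO and 0.165 and 0.126 RPKM in control.

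Among junction genes CTNNA1, the α-catenin that links cadherins to actin, fell by 0.17 and was the only call among 13 tested catenins and adherens junction proteins (median 0.08). Of 24 tested tight junction, desmosome and polarity genes CLDN1, a claudin, rose by 0.20, a call that was lost with TMM scaling (adjusted p = 0.056 from limma), and F11R, the junctional adhesion molecule A, fell by 0.34, with a median of -0.01. Of 8 tested cadherins other than the members, CDH4 (0.62) and CDH24 (0.31) rose and CDH5 fell by 0.31, and the median was 0.30. CDH4, CDH6 (0.44), CDH10 (0.29) and PCDH7 (0.56) were under 1 RPKM in every library. Above 1 RPKM, CDH5, CDH13 (-0.16) and PCDH1 (-0.12) lay below 0 and CDH24 above 0. With TMM scaling CDH24 no longer passed (adjusted p = 0.074 from limma). CDH5, the cadherin of endothelial cells, had 14.0 and 14.5 RPKM in ISO and 17.7 RPKM in each control library, where the endothelial markers KDR and TEK were at 0.

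Of 11 tested intermediate filament genes other than VIM, 5 fell (45.5%, beside 4.12% of all genes) and 1 rose, with a median of -0.11. The list was written with earlier results of these data known, so this share is a description only. The one that rose was LMNB1, a nuclear lamin (0.23), which did not pass with TMM scaling (adjusted p = 0.062 from limma). KRT7, a keratin of simple and urothelial epithelium, had 311 and 310 RPKM in ISO and 371 and 369 RPKM in control, a log2 fold change of -0.25 (adjusted p = 0.0073 from limma), and it was called with each library left out. KRT19, KRT18 and KRT81 fell by 0.31, 0.21 and 0.21 on the log2 scale. VIM, counted as mesenchymal, and these keratins, counted as epithelial, were lower in the same libraries.

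Of 21 tested mesenchymal matrix and surface genes 5 fell and 3 rose, with a median of 0.02. LOX, which crosslinks collagen, had 11.1 and 10.8 RPKM in ISO and 17.1 and 16.9 RPKM in control (log2 fold change -0.64, adjusted p = 0.001 from limma). COL6A1, a collagen VI chain, ITGA5, the α chain of the fibronectin receptor, and LOXL2, a relative of LOX, fell by 0.32, 0.31 and 0.20. PDGFRB, a receptor of mesenchymal cells, rose by 0.68 at under 1 RPKM, with S100A4 (0.35) and FBN1 (0.20). With TMM scaling 7 fell and 1 rose, and S100A4 and FBN1 no longer passed (adjusted p = 0.071 and 0.090 from limma).

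TGF-β signalling genes were read as ligands and receptors, SMADs, and targets. TGFB1, the ligand, had 66.9 and 70.3 RPKM in ISO and 70.6 and 69.3 RPKM in control, a log2 fold change of -0.03 with a 95% interval of -0.11 to 0.06. Of 17 tested ligands, receptors and latency genes, 3 fell, namely the activin subunit INHBA (-0.56), the TGF-β activator THBS1 (-0.47) and the latency anchor LRRC32 (-0.62), and the coreceptor TGFBR3 rose (0.31). Of 18 SMADs and regulators, the inhibitory SMAD7 rose (0.35), and the feedback gene PMEPA1 (-0.32) and the ubiquitin ligase SMURF2 (-0.27) fell. With TMM scaling neither TGFBR3 nor SMAD7 passed (adjusted p = 0.081 and 0.053 from limma), and neither did in any fit without 1 library. Of 21 targets 7 fell (33.3%, beside 4.12% of all genes) and 2 rose, with a median of -0.09, and with TMM scaling 9 fell and 1 rose. This share too is a description only. ANGPTL4, a secreted regulator of lipoprotein lipase, had 33.4 and 27.8 RPKM in ISO and 55.6 and 50.2 RPKM in control, a log2 fold change of -0.79 (adjusted p = 0.0075 from limma), called with each library left out. BHLHE40, a transcriptional repressor that, like ANGPTL4, also responds to hypoxia, and CDKN1A, the cell cycle inhibitor p21, fell by 0.44 and 0.30, and JUNB, an AP-1 subunit, rose by 0.33.

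A further list held ligands and receptors of other EMT pathways together with the Notch target HES1, and of its 17 tested genes 3 fell and 1, PDGFRB, rose, with a median of -0.05. PDGFB, the platelet-derived growth factor B chain, had 32.9 and 32.4 RPKM in ISO and 45.6 and 43.3 RPKM in control (log2 fold change -0.44, adjusted p = 0.0032 from limma). HES1, a transcriptional repressor, and WNT5A, a ligand of noncanonical Wnt signalling, fell by 0.31 and 0.48. Over all lists 40 called genes are named here. Of these, 10 were called in every fit without 1 library, 15 in none and 31 with TMM scaling, and all 40 kept their direction in every fit. The 15 were FOXC2, KLF5, CTNNA1, CLDN1, CDH4, CDH24, KRT18, KRT81, FBN1, LOXL2, S100A4, PDGFRB, TGFBR3, SMAD7 and WNT5A.

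**Figure D4:**
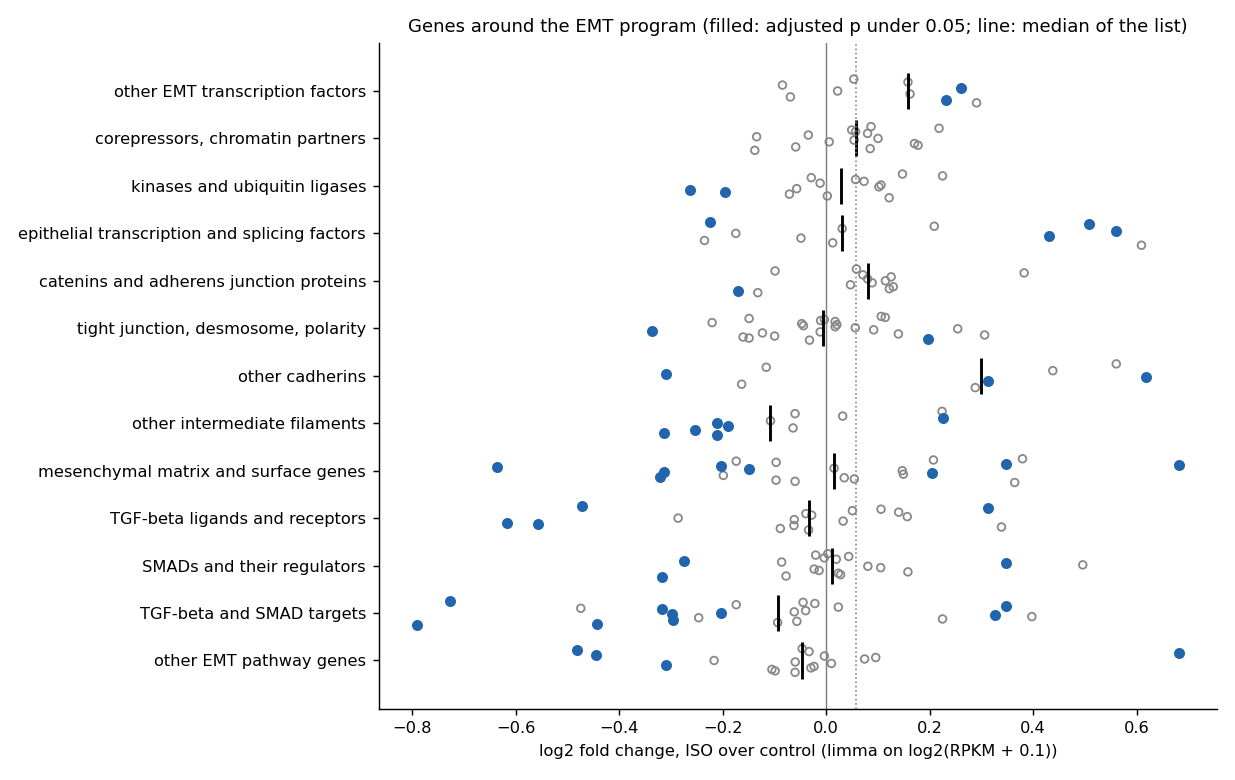
Log2 fold change of ISO over control for every tested gene of 13 lists around the EMT program (1 point a gene, 1 row a list, filled where the adjusted p was under 0.05, short black line the list median, dotted line the median of all tested genes). The lowest point is ANGPTL4 among TGF-β targets, most filled points of the filament row lie below 0, and the filled points of the epithelial factor row lie mainly above 0.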

How the data were processed

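The authors trimmed the reads, aligned them to hg38 with 2 mismatches allowed in Biomedical Genomics Workbench 22.0.2, summed reads on exons per gene and deposited RPKM, 1 column a library, without TMM scaling or logs. Columns with the authors' group means were not used. Whole reads were recovered as RPKM times the summed exon length (GENCODE 44) and each library's scale, and 98.8% or more of the non-zero values in each library lay no further than 0.05 from a whole number. The chi-square per gene between the recovered reads averaged 3.83 for the ISO pair (median 0.96) and 3.15 for the control pair (median 0.99). Thus no library was a copy of another.

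Fold changes come from limma 3.58.1 (R 4.3.3), fitted with a variance trend on the log2(RPKM + 0.1) scale, which understates changes of low genes, and p-values were adjusted over all 15304 tested genes. The fit was also run on simulated data with changes larger than those of SNAI2 and VIM, and the outcome is not given here. The 10 genes, the lists and the markers were chosen with earlier results of these data known. Named are the 10 genes, up to 4 called genes a list and direction by smallest p, partner genes, markers and the 3 genes nearest SNAI2. TWIST2 was named as a partner. Other called list genes are counted but not named, and 2 genes were taken off the lists and markers and are not reported here. Alternatives were a pseudocount of 1 or 0.01, leaving out the filter, raising it to 1 RPKM, TMM scaling (30% of log ratios and 5% of mean levels trimmed, from recovered reads), median-of-ratios scaling, limma-voom on genes that averaged 10 or more reads, a block by the letters a and b, and leaving out every library in turn, where the lone library is assumed to vary like the other group. Floors and read numbers cover counting error only. Figures used Python 3.11.15 and matplotlib 3.10.9.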

Additional observations from a re-analysis of the deposited data

How the results depend on the processing

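Of the 10 genes 2 were called, against 0 with no filter and 5 with limma-voom. The count was 3 with a mean of at least 1 RPKM, with TMM or with median-of-ratios scaling. With no filter 3 had an unadjusted p under 0.05 from limma, and the share of all genes at that threshold was not counted there. With a library left out the log2 fold change of SNAI2 ranged from -0.56 to -0.42 and that of VIM from -0.26 to -0.17. Over all genes 2054 were called, against 349 with no filter, 2687 with a mean of at least 1 RPKM, 1520 with TMM scaling, 2763 with limma-voom and 435 to 598 with a library left out. For the list genes 44 calls became 9 with no filter, 75 with limma-voom and 15 to 21 with a library left out. The log2 fold change ranged from -0.19 to 0.052 for SNAI1 and from -0.12 to 0.038 for ZEB2 with a library left out, above 0 without ISO library a for both and without control library a for SNAI1 (0.035), and turned for CDH2 to -0.024 with TMM scaling and limma-voom and to -0.022 with median-of-ratios scaling. Whether libraries with the same letter were handled together is not stated. The gaps of library b and a in ISO and in control had a Pearson r of -0.13 over 6208 genes, which cannot settle it. A replicate block gave 1662 calls over all genes, 2 of the 10 genes and 40 list genes. A block with crossed letters, chosen after seeing the data, gave 2321, 1 and 49. With 2 libraries a group and 3 reads as the smallest detectable amount, CDH1 and TWIST1 could not be compared. The cause of these shifts was not tested, and the fits without a library also hold fewer samples.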
